A study of Mus musculus with 4 samples.

Results

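The Wif1-positive cells described here came from bone marrow sorted as tdTomato+ and were chosen by their own transcripts: a called cell with at least 2 UMIs (unique molecular identifiers, 1 per captured transcript) of Wif1, 0 UMIs of Ptprc, the pan-hematopoietic CD45 gene, and less than 1% of its UMIs from the osteocalcin genes Bglap and Bglap2. They numbered 715 of 9795 called cells. The rule asked for no mesenchymal transcript: in replicate 1, 7 of 45 such cells of the contralateral femurs (CONT) and 10 of 83 of the ablated femurs (ABL), and in replicate 2, 4 of 260 and 19 of 327, had less than 0.5% of their UMIs from Cxcl12, Col1a1, Col1a2 and Col3a1 together. The working name was Wif1-positive pre-osteoblasts, with Limch1, Kcnk2 and Tnfrsf19 as further markers. All libraries came from Cxcl12-iCreER; R26R(tdTomato/+) mice, in which a Cxcl12 BAC transgene drives the tamoxifen-inducible recombinase, and all mice received tamoxifen 7 days before marrow ablation. tdTomato+ cells of the intact CONT and of the ABL femurs were sorted 7 days after ablation, with distal growth plates and proximal ends of the bones removed, so the controls came from mice that also carried an injured bone. Each of 2 replicates gave 1 CONT and 1 ABL library, made with Chromium v2 in replicate 1 (pooled mice) and v3 in replicate 2, so replicate and chemistry cannot be told apart. The age and sex of the mice were not in the labels.

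In replicate 1, 44784072 UMIs were deposited for CONT and 22889380 for ABL, and in replicate 2, 40486876 and 41536563. Called cells numbered 3419, 1438, 2397 and 2541 in this order of libraries. Of them, 45, 83, 260 and 327 were Wif1-positive. Their median depth was 6049, 9274, 15402 and 13140 UMIs. CONT and ABL of replicate 1 shared 5 barcodes among called cells and those of replicate 2 shared 1, none of them Wif1-positive in both. Xist, the X-inactivation transcript of female cells, stood in the Wif1-positive cells at 1195 CPM (counts of the gene per 1000000 UMIs summed over these cells) for CONT and 1005 for ABL in replicate 1, against 518 for CONT and 0 for ABL in replicate 2 (95% exact Poisson interval up to 0.754). ABL replicate 2 therefore stood apart from its contralateral library. Values from fits without it stand beside most results for gene groups against reticular cells and for ABL against CONT.

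Wif1 encodes a secreted protein that binds Wnt ligands outside the cell and blocks their signal, and is itself known as a gene that Wnt signalling raises in osteoblast-lineage cells. Wnt ligands act through Frizzled receptors and Lrp5 or Lrp6, stabilise beta-catenin, and drive transcription by TCF/LEF factors, a pathway that promotes bone formation. Limch1 encodes an actin- and myosin-associated protein, Kcnk2 a background potassium channel and Tnfrsf19 an orphan receptor of the TNF receptor superfamily. Pre-osteoblasts are known for Alpl, the alkaline phosphatase needed for mineralization, and for the matrix genes Spp1 and Postn, whereas reticular stromal cells are known for Cxcl12, Lepr and Adipoq.

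On GRCm38 (GENCODE M21), Wif1 lies on chromosome 10 from 121033960 to 121100650 on the plus strand, Limch1 on chromosome 5 from 66745827 to 67057158 on the plus strand, Kcnk2 on chromosome 1 from 189207930 to 189402273 on the minus strand and Tnfrsf19 on chromosome 14 from 60963875 to 61046490 on the minus strand. Because the rule turns on a Wnt antagonist, promoter windows of the 4 marker genes (RefSeq, GRCm38.p6, 250 bases before to 50 after a transcription start) were searched for the TCF/LEF core CTTTGA on both strands. The Wif1 window is shown as the gene that chose the cells, and the other 3 as the windows that held a match. Sequences read 5′ to 3′ on the strand of the gene, with CTTTGA or its reverse complement TCAAAG in capitals.
Wif1, chr10:121033754-121034053, plus strand: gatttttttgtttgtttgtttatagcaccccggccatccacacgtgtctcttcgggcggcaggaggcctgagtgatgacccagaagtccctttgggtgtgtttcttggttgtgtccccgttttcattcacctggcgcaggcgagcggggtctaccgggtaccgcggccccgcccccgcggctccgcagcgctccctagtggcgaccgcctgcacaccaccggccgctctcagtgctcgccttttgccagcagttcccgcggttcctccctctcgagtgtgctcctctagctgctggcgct
Kcnk2, chr1:189402224-189402523, minus strand: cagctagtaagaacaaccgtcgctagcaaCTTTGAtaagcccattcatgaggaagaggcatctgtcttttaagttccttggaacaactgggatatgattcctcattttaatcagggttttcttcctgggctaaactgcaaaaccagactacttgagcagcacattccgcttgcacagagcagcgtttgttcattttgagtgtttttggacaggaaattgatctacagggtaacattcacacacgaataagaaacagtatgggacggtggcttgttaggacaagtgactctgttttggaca
Limch1, chr5:66968178-66968477, plus strand: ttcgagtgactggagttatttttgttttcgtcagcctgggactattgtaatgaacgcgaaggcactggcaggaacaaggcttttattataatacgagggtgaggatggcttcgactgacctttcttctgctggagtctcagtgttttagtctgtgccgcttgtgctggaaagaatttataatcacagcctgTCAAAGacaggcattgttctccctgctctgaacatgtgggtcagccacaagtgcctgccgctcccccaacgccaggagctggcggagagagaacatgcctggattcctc
Tnfrsf19, chr14:61037938-61038237, minus strand: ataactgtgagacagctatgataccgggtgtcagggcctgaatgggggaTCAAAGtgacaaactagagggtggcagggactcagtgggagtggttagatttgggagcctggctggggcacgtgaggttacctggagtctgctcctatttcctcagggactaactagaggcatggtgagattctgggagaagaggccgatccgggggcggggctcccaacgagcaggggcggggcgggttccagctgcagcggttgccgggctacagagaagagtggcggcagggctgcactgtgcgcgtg
The core was at none of the positions of the single Wif1 window. It occurred once in 1 of 3 windows of Limch1, 1 of 4 of Kcnk2 and 1 of 2 of Tnfrsf19, and in 5257 of 32851 windows of all genes (16.0%). These are descriptions of letters in a window, and say nothing of binding.

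Wif1-positive cells made up a larger share of stromal cells in the ablated femur than in the contralateral femur of both replicates. At full depth, however, the share of those with at least 2 of the label's other markers was lower in ABL than in CONT of replicate 2. Stromal cells were called cells without Ptprc in which Cxcl12, Col1a1, Col1a2 and Col3a1 together held at least 0.5% of UMIs. The share was 3.09% in CONT replicate 1 (95% exact binomial interval 2.20 to 4.22%, 38 of 1228 cells) and 12.2% in ABL replicate 1 (9.66 to 15.1%, 73 of 600). It was 13.0% in CONT replicate 2 (11.5 to 14.5%, 256 of 1974) and 19.0% in ABL replicate 2 (17.1 to 21%, 308 of 1623). These and later intervals describe counting error alone.

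The ABL share exceeded the CONT share by 9.07 percentage points in replicate 1 and 6.01 in replicate 2 (mean 7.54, SD 2.17, n = 2). CONT replicate 2 lay as high as ABL replicate 1, and a rule of 2 UMIs admits more cells at higher depth. After every called cell was thinned to 2700 UMIs, the shares were 1.64%, 7.63%, 1.70% and 8.24% in the order used above, so both ABL libraries lay above both CONT libraries, with differences of 5.99 and 6.54 points. With a minimum of 1 Wif1 UMI, the difference was 12.6 points in replicate 1 and turned to -1.49 in replicate 2. An exact permutation test of 2 against 2 libraries cannot give a two-sided p below 0.333, so the shares were not tested. Counting only Wif1-positive cells with a UMI of at least 2 of Limch1, Kcnk2 and Tnfrsf19, a split made after the values were seen, the share was 2.20% in CONT and 9.83% in ABL of replicate 1, but 9.57% in CONT and 3.57% in ABL of replicate 2. Without the cells that carried an Acan UMI, it was 3.01% and 11.7% in replicate 1 and 13.0% and 4.87% in replicate 2. Acan was found in 0 Wif1-positive cells of CONT replicate 2 and 244 of ABL replicate 2. Leaving such cells out could therefore only lower the ABL share of replicate 2, and no conclusion is drawn from it. By the marker split at full depth, the direction in replicate 2 turned for the cells that bore the label's markers. That split was not repeated after thinning, so the part of depth in the turn was not tested.

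**Figure D1:**
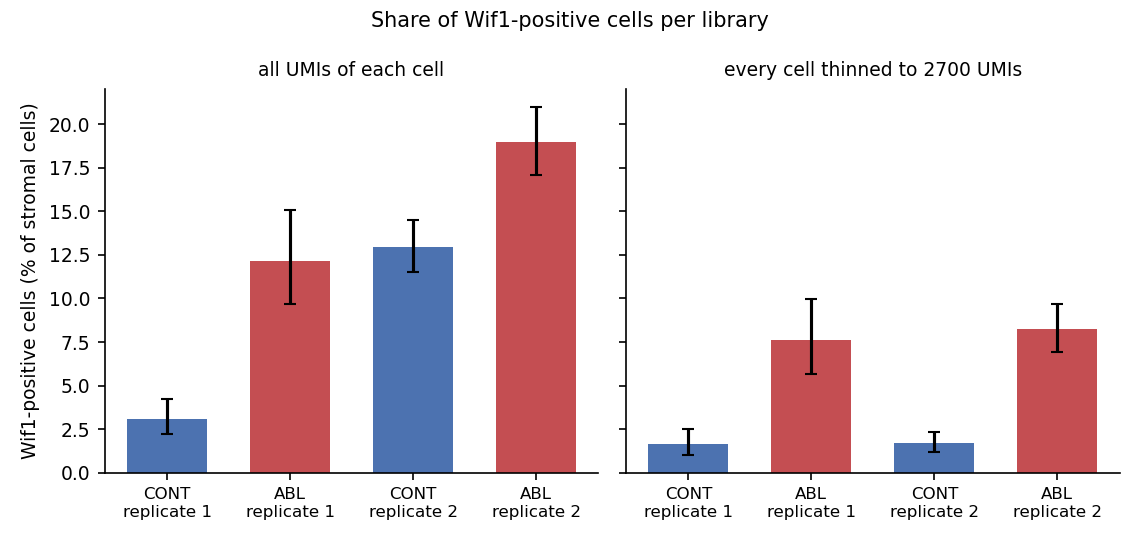
Wif1-positive cells as a percentage of stromal cells in each library (bars start at 0, lines are 95% exact binomial intervals), from all UMIs (left) and after thinning every cell to 2700 UMIs (right). On the right, the CONT libraries stand at 1.64 and 1.70% and the ABL libraries at 7.63 and 8.24%, with every cell that met the Wif1 rule counted whether or not it bore the other markers.

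Free RNA carried Wif1 as well, and its level moved with the condition. Droplets with at most 300 UMIs held 108 Wif1 CPM in ABL against 21 in CONT of replicate 1, and 125 against 40.2 in replicate 2. Cells with a Ptprc UMI, which should lack Wif1, met the minimum of 2 Wif1 UMIs in 3 of 1231, 7 of 488, 9 of 279 and 8 of 568 cases (0.244%, 1.43%, 3.23% and 1.41%), at median depths of 6293, 6977, 12397 and 10866 UMIs. These shares lay below those of stromal cells in each library. The part of free RNA in the difference between ABL and CONT was not tested. Summed over all called cells, 69.0%, 75%, 73.6% and 91.3% of Wif1 UMIs fell in the Wif1-positive cells, in the same order.

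The cells were selected on Wif1, so its level describes the choice. It was 813, 841, 256 and 829 CPM in the 4 libraries in the same order, with medians of 4, 5, 3 and 5 UMIs per cell. Just inside the threshold, 13, 14, 128 and 71 cells had exactly 2 UMIs, and just outside it 79, 72, 352 and 167 cells had exactly 1. In CONT replicate 2, cells with exactly 2 UMIs were the most frequent, whereas 204 cells of ABL replicate 2 had 4 or more.

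At least 2 of the label's further markers were found in most Wif1-positive cells of each library but ABL replicate 2. The name pre-osteoblast was not borne out by Alpl and Spp1 for most Wif1-positive cells of CONT replicate 2. An Alpl UMI was found in 77.8%, 98.8%, 41.2% and 70.9% of Wif1-positive cells of CONT and ABL replicate 1 and CONT and ABL replicate 2. For Spp1 it was 71.1%, 97.6%, 40.4% and 84.7%, and for Lepr 86.7%, 65.1%, 99.2% and 22.3%. Most Wif1-positive cells in both CONT libraries also met the definition of reticular cells but for Wif1, as given below. Of the markers Limch1, Kcnk2 and Tnfrsf19, at least 2 had a UMI in 32 of 45 (71.1%), 64 of 83 (77.1%), 193 of 260 (74.2%) and 61 of 327 (18.7%) Wif1-positive cells of CONT and ABL replicate 1 and CONT and ABL replicate 2. For comparison, reticular cells were called cells with no Ptprc or Wif1 UMI, at least 0.5% of UMIs from Cxcl12, at least 1 Adipoq UMI and less than 1% osteocalcin UMIs. They numbered 1036, 322, 1315 and 219, with median depths of 4526.5, 6640, 12435 and 7552 UMIs, and 12.2%, 37.6%, 44.0% and 42.0% of them had at least 2 of the markers. ABL replicate 2 was the library where Wif1-positive cells had the markers less often than reticular cells. Among cells with a Ptprc UMI, Limch1, the most widespread marker, was found in 4.63%, 12.5%, 12.9% and 2.99%, against 84.4%, 78.3%, 88.1% and 25.1% of Wif1-positive cells.

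Limch1 stood at 695 CPM in Wif1-positive and 90.7 CPM in reticular cells of CONT replicate 1, at 429 against 264 in ABL replicate 1, at 390 against 150 in CONT replicate 2 and at 87.5 against 393 in ABL replicate 2. Kcnk2 stood at 496 against 27.7, 282 against 77.0, 65.3 against 25.4 and 34.1 against 49.0 CPM in the same order. Tnfrsf19 stood at 186 against 49.5, 110 against 68.7, 122 against 77.6 and 30.9 against 95.6 CPM. All 3 markers were higher in Wif1-positive than in reticular cells of 3 libraries and lower in those of ABL replicate 2.

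The pre-osteoblast genes did not follow that reversal. Alpl was at 761 CPM in Wif1-positive and 37.2 CPM in reticular cells of CONT replicate 1, 986 against 225 in ABL replicate 1, 119 against 26.1 in CONT replicate 2 and 532 against 99.6 in ABL replicate 2. Spp1, which encodes osteopontin, was at 3216 against 154, 11096 against 602, 1478 against 132 and 6046 against 1963 CPM. Postn, which encodes periostin, was at 333 against 3.36, 444 against 47.2, 27.8 against 3.23 and 419 against 51.8 CPM. The summed level of each of the 3 genes was higher in Wif1-positive cells in all 4 libraries, and within Wif1-positive cells CONT replicate 2 had the lowest. In CONT replicate 2 a few cells carried the sums: 1 of 260 cells held 67.8% of the Spp1 UMIs and 3 cells held 76.5% of those of Postn. The other cells had 480 CPM of Spp1 without that 1 cell and 6.66 CPM of Postn without those 3. In CONT replicate 1, 1 cell held 50.2% of the Spp1 UMIs. Wif1-positive cells that met the stromal definition had 3446, 8269, 368 and 5451 CPM of Spp1, above reticular cells of each library. The 7, 10, 4 and 19 cells that did not had 1810, 22899, 62448 and 18336 CPM. In ABL replicate 2 those 19 cells had only 31.0 CPM of Alpl. Alpl was spread more evenly, with at most 7.73% of its UMIs in 1 cell of any library.

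By Lepr and the reticular definition, CONT replicate 2 and ABL replicate 2 stood at opposite ends. Lepr, the leptin receptor gene, was at 483, 194, 1851 and 54.0 CPM in Wif1-positive cells of CONT and ABL replicate 1 and CONT and ABL replicate 2. Cells with exactly 1 Wif1 UMI, outside the rule, had the same order of libraries, at 824, 336, 2120 and 118 CPM. With Wif1 left aside, 30 of 45 (66.7%), 26 of 83 (31.3%), 252 of 260 (96.9%) and 34 of 327 (10.4%) Wif1-positive cells would have met the definition of reticular cells. Nearly all Wif1-positive cells of CONT replicate 2 were thus also reticular cells by that definition, and few of ABL replicate 2 were.

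**Figure D2:**
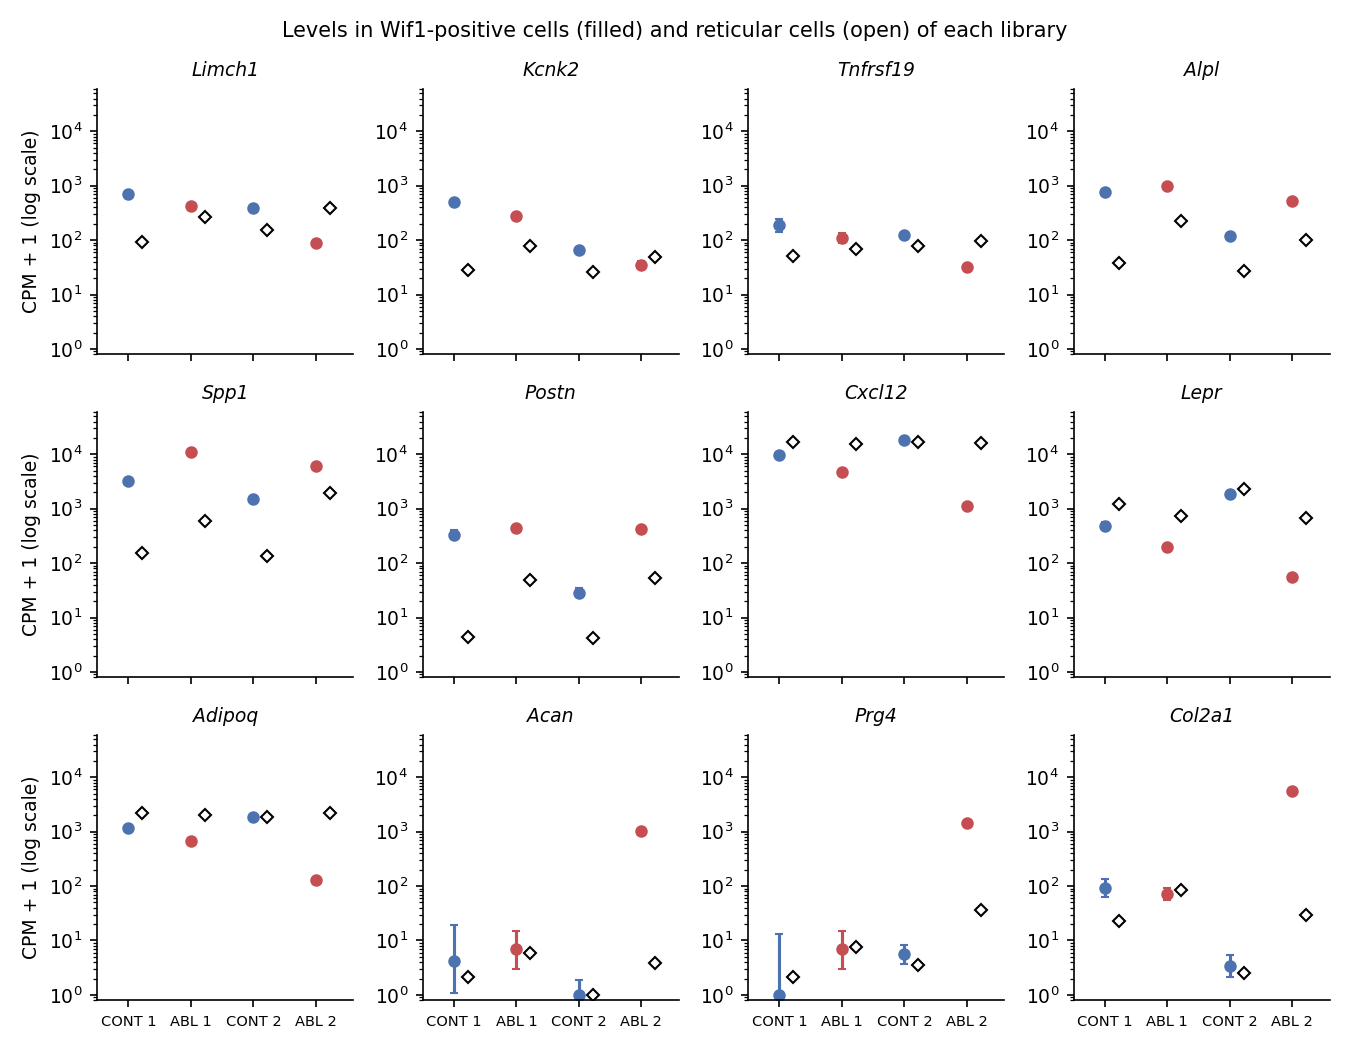
CPM + 1 on a log axis of 12 genes in Wif1-positive cells (filled, blue CONT, red ABL, lines are 95% exact Poisson intervals) and reticular cells (open diamonds) of each library. Limch1 in ABL replicate 2 stands at 87.5 CPM, below the 393 CPM of its reticular cells, while Acan reaches 1031 CPM there and at most 5.99 CPM in the other 3 libraries.

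Cartilage and joint-lining genes were high in the Wif1-positive cells of ABL replicate 2, and also in cells of that library just outside the rule. Acan, the aggrecan core protein gene, was at 3.26, 5.99, 0 and 1031 CPM in Wif1-positive cells of CONT and ABL replicate 1 and CONT and ABL replicate 2. Prg4, which encodes the lubricant lubricin, was at 0, 5.99, 4.59 and 1422 CPM, and Col2a1, the type II collagen gene, at 91.4, 71.9, 2.42 and 5520 CPM. The 8 chondrocyte markers summed to 176, 145, 47.6 and 13399 CPM, with Col2a1 the most abundant in ABL replicate 2 and none of the 8 at 0 there. Reticular cells of ABL replicate 2 reached 134 CPM for the same list. The 167 cells of ABL replicate 2 with exactly 1 Wif1 UMI, which did not meet the rule, had 753 CPM of Acan and 2023 of Prg4, and the 72 such cells of ABL replicate 1 had 290 CPM of Acan. An Acan UMI was found in 1, 4, 0 and 244 Wif1-positive cells (2.22%, 4.82%, 0% and 74.6%), against 1.22%, 4.30%, 0.358% and 4.93% of cells with a Ptprc UMI.

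The genes that led each library over its own reticular cells differed in kind, by the ratio of CPM + 1 among genes of at least 100 CPM. In CONT replicate 1 they were led by Postn, the amino acid transporter gene Slc36a2, Cpe, the phosphate transporter gene Slc20a2, Spp1 and Alpl. In ABL replicate 1 the first 10 were Car3, Cpe, Dmp1, Car1, Vldlr, Hist1h2ap, Ifitm5, Smpd3, Spp1 and Slc36a2, of which Dmp1 and Ifitm5 mark late osteoblasts and osteocytes, Car1 is an erythroid carbonic anhydrase gene and Hist1h2ap a replication histone gene. Car1 was at 979 and Hist1h2ap at 1252 CPM in the 10 cells of that library below 0.5% stromal UMIs, and at 4.45 and 10.4 CPM in the other 73. In CONT replicate 2 they were Spp1, Alpl and the metalloproteinase inhibitor gene Timp3. In ABL replicate 2 they were Chad, Igfbp6, Mmp3, Col9a1, Hapln1 and Acan, and Alpl and Spp1 were not among the first 10.

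Splitting ABL replicate 2 by Acan, a split made after the values were seen and described here with no test, gave 244 cells with and 83 without an Acan UMI. The 83 cells had 479 CPM of Limch1, 149 of Kcnk2, 170 of Tnfrsf19, 6060 of Cxcl12 and 16414 of Spp1. The 244 cells had 8.84 CPM of Limch1, 11.1 of Kcnk2, 2.95 of Tnfrsf19, 152 of Cxcl12 and 3961 of Spp1. Limch1, Kcnk2 and Tnfrsf19 in the 83 cells were thus within the range of Wif1-positive cells in the other 3 libraries. Within that range, Kcnk2 lay below both libraries of replicate 1. The 244 cells, at a higher median depth of 14439 against 9003 UMIs, were the ones low in these markers. Alpl did not separate these cells from the others, at 516 CPM in the 244 cells and 610 CPM in the 83 cells. Tnn, which encodes the matrix protein tenascin-W, was at 554 CPM in the 244 cells and 24.4 CPM in the 83 cells.

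**Figure D3:**
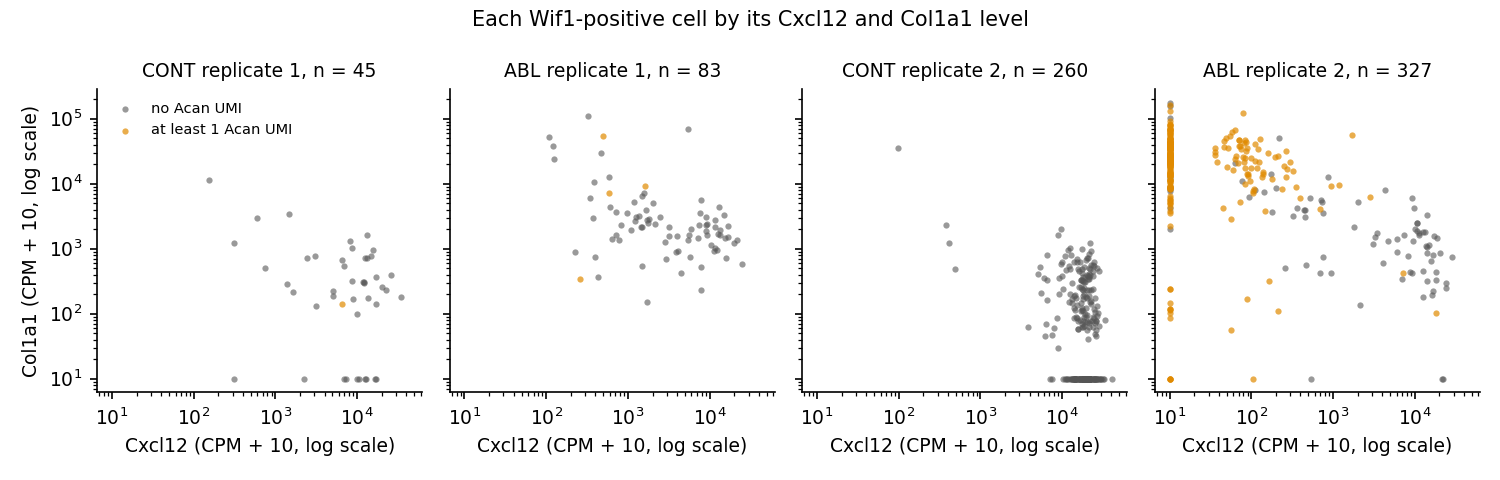
Each Wif1-positive cell by its Cxcl12 and Col1a1 level (CPM + 10, log axes) in the 4 libraries, with cells carrying an Acan UMI in orange. The 244 orange cells of ABL replicate 2 lie mostly at low Cxcl12 and high Col1a1, and the 260 cells of CONT replicate 2 mostly at high Cxcl12 and low Col1a1.

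Between cells with exactly 2 and cells with 4 or more Wif1 UMIs, the summed levels of Alpl and Spp1 were higher in the latter in each library, and that of Limch1 in all but ABL replicate 2. However, a few cells held a large part of the Spp1 UMIs of the latter in both libraries of replicate 1 and in CONT replicate 2. In CONT replicate 2, the 128 cells with exactly 2 Wif1 UMIs had 48.3 CPM of Alpl, 357 of Spp1, 1.56 of Postn and 288 of Limch1, and the 82 cells with 4 or more had 275, 3971, 83.7 and 595 CPM. Of the 82 cells, 3 held 93.4% of the Spp1 UMIs and 3 held 80.7% of those of Postn, and the others had 278 and 17.2 CPM. The cells with 2 UMIs kept their richest cells, so these lower levels cannot be set against theirs. In CONT replicate 1, the 13 cells with 2 UMIs had 307 CPM of Alpl and 263 of Limch1, and the 29 cells with 4 or more had 923 and 845 CPM. Spp1 was at 336 and 4291 CPM in them, but 3 of the 29 cells held 73.7% of its UMIs and the others had 1295 CPM. In ABL replicate 1, the 14 cells with 2 UMIs had 407 CPM of Alpl, 6787 of Spp1 and 188 of Limch1, and the 56 cells with 4 or more had 1221, 13520 and 519 CPM. Of the 56 cells, 3 held 46.4% of the Spp1 UMIs, and the others had 7992 CPM. In ABL replicate 2, the 71 cells with 2 UMIs had 387 CPM of Alpl, 2339 of Spp1 and 113 of Limch1, and the 204 with 4 or more had 606, 7030 and 75.8 CPM. These bins were made from the gene that chose the cells and were not tested.

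**Figure D4:**
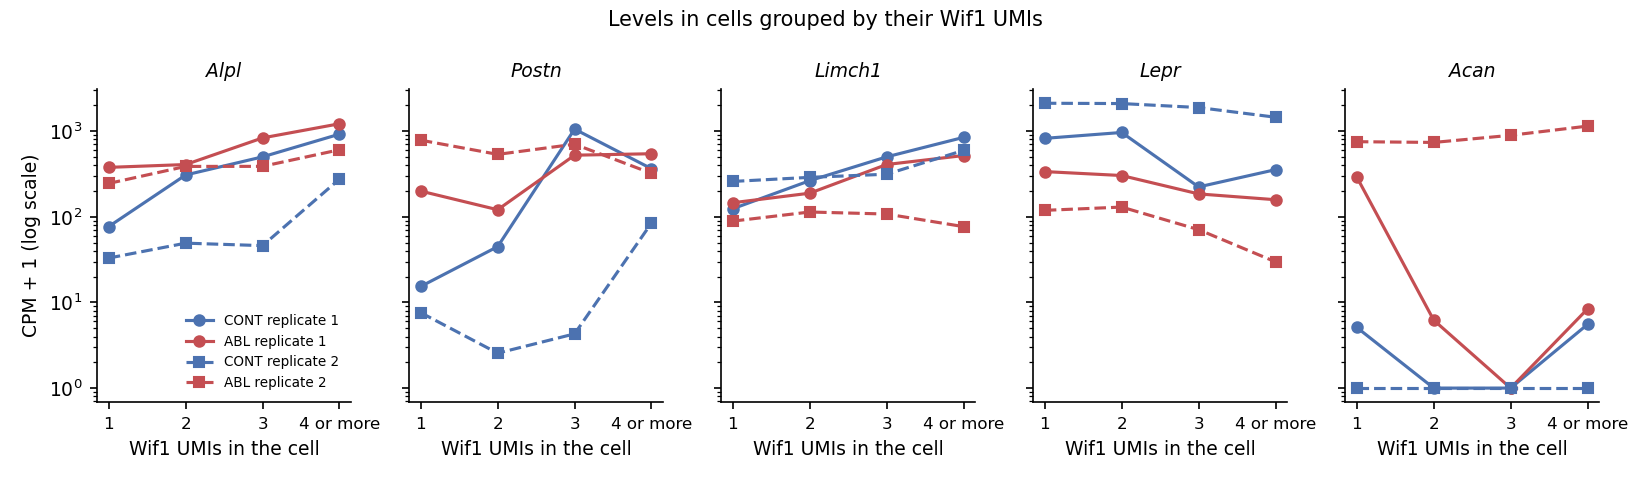
CPM + 1 (log axis) of 5 genes in cells with 1 (not Wif1-positive), 2, 3 or 4 or more Wif1 UMIs in each library; the bin of 3 UMIs holds only 3 cells in CONT replicate 1. In CONT replicate 2 Alpl is at 48.3 CPM at 2 UMIs and 275 CPM at 4 or more, and Acan is at 738 CPM or more in every bin of ABL replicate 2, at 290 CPM in the 1-UMI bin of ABL replicate 1 and at most 7.41 CPM in the other bins.

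The comparison of Wif1-positive with reticular cells of the same libraries asked which genes, beyond the rule, set them apart in all 4. Reticular cells had to carry Cxcl12 and Adipoq and Wif1-positive cells did not, so a difference can also reflect that choice. Its part was not tested. The protease gene Cpe, whose product trims prohormones, and the matrix genes Fn1 (fibronectin), Timp3 and Wisp1 (a matricellular protein of the CCN family) had higher summed levels in Wif1-positive cells of every library, but in CONT replicate 2 Cpe, Timp3 and Wisp1 were not above reticular cells in the 128 Wif1-positive cells with exactly 2 Wif1 UMIs. Rgs4, an inhibitor of G-protein signalling, was lower in every library. Summed UMIs were tested with edgeR's quasi-likelihood test with the library as a block and Benjamini-Hochberg adjustment. Of 10777 genes tested, 15 were higher (0.139%) and 1 was lower (0.00928%) at an adjusted p of 0.05, and 1146 had an unadjusted p under 0.05. Wif1, Bglap, Bglap2 and its near-identical neighbour Bglap3 were among the 15, and describe the rules. DESeq2 also called the other 12, and 148 genes beyond the rules in all.

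Cpe was at 108 CPM in Wif1-positive and 2.24 in reticular cells of CONT replicate 1, at 341 against 10.8 in ABL replicate 1, at 7.01 against 0.352 in CONT replicate 2 and at 240 against 5.12 in ABL replicate 2. The summed level was higher in Wif1-positive cells of each library, although that in CONT replicate 2 lay below reticular cells of ABL replicate 1, and the log2 fold change was 5.20 (SE 0.28, edgeR adjusted p = 0.00148). A Cpe UMI was found in 15 of 45, 57 of 83, 9 of 260 and 222 of 327 cells. The CONT replicate 2 cells with 2 or 3 Wif1 UMIs had none, 3 cells held 21 of the 29 UMIs, and its other Wif1-positive cells were at 1.97 CPM. In CONT replicate 1 the 13 cells with 2 Wif1 UMIs had none either. The Cpe difference in the CONT libraries was thus carried by a minority of cells. In the 244 Acan-carrying and the 83 other cells of ABL replicate 2, Cpe was at nearly the same level, 239 and 242 CPM. Timp3 was at 222 against 27.1, 134 against 25.7, 132 against 41.4 and 218 against 28.5 CPM, with a log2 fold change of 2.54 (SE 0.28, edgeR adjusted p = 0.0287), and its summed levels in the 2 cell classes did not overlap across the 4 libraries. However, 3 cells held 58.8% of the Timp3 UMIs of CONT replicate 1 and 59.3% of those of CONT replicate 2. The others were at 98.8 and 54.7 CPM. The level in CONT replicate 2 was 20.8 CPM in cells with 2 Wif1 UMIs, 45.1 with 3 and 356 with 4 or more, so the first of these lay below reticular cells.

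Fn1 was at 356 against 37.4, 1490 against 383, 34.6 against 7.75 and 3424 against 311 CPM (log2 fold change 2.76, SE 0.35, edgeR adjusted p = 0.0488). Wisp1 was at 101 against 12.9, 120 against 45.1, 11.8 against 3.23 and 55.6 against 18.8 CPM (log2 fold change 1.98, SE 0.25, edgeR adjusted p = 0.0488). In the CONT replicate 2 cells with 2 Wif1 UMIs, Fn1 was at 13.5 and Wisp1 at 3.11 CPM. Wif1-positive cells that met the reticular definition but for Wif1 had 304, 1281, 20.7 and 224 CPM of Fn1. In ABL replicate 2 this lay below reticular cells. Postn in such cells was at 115, 191, 6.74 and 51.8 CPM, the last level with reticular cells of ABL replicate 2. Rgs4 was at 71.8 against 224, 33.5 against 112, 45.0 against 99.6 and 20.9 against 67.2 CPM (log2 fold change -1.48, SE 0.19, edgeR adjusted p = 0.0488). Its call was lost with a minimum of 1 Wif1 UMI, with no UMI minimum and with stricter cell filters. It was also lost in tdTomato+ cells, without TMM scaling and with no library block. Other calls were unstable too: without CONT replicate 1 the count over all genes was 0, and with no library block it was 1. Of 18 genes followed in this comparison, 9 lost their call with a minimum of 1 Wif1 UMI. With stricter cell filters 7 did, without TMM scaling 7 and in tdTomato+ cells 6. Lower-abundance genes past the threshold were Car8, Fat3, Mgll, Spata13, Ppfibp2, Fyn and Cd109. The first 6 were higher in Wif1-positive cells of all 4 libraries, and Cd109 was higher in both ABL libraries but at 0 CPM in the Wif1-positive cells of both CONT libraries. Some of these levels rested on few UMIs. In CONT replicate 1 Fat3 had 3 UMIs in 3 of 45 cells, and Fyn 6 UMIs in 5. In CONT replicate 2, 3 cells held 73.1% of the Fat3 UMIs and 51.6% of those of Mgll.

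**Figure D5:**
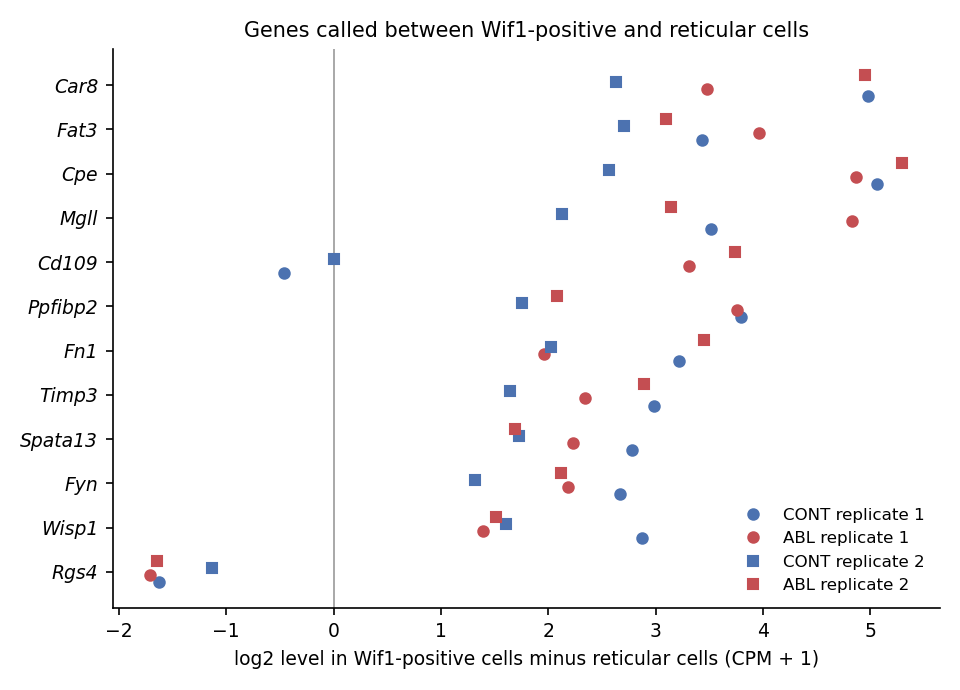
Difference of log2(CPM + 1) between Wif1-positive and reticular cells in each library (blue CONT, red ABL; circles replicate 1, squares replicate 2) for the 12 genes past the threshold that the rules did not use. Cpe lies between 2.57 and 5.30 in the 4 libraries, Rgs4 below 0 in all, and Cd109 above 0 in the ABL libraries only.

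The pre-osteoblast genes narrowly missed the threshold: the log2 fold change was 2.80 for Alpl (SE 0.37, edgeR adjusted p = 0.0536), 3.50 for Spp1 (SE 0.47, adjusted p = 0.0556) and 3.88 for Postn (SE 0.55, adjusted p = 0.0721). It was 1.76 for Kcnk2 (SE 0.61, adjusted p = 0.399), 0.85 for Limch1 (SE 0.69, adjusted p = 0.689) and 0.47 for Tnfrsf19 (SE 0.45, adjusted p = 0.742), the 3 markers that changed side in ABL replicate 2. Without that library 47 genes were called, among them Alpl, Spp1, Postn and Kcnk2. Of the 10 pre-osteoblast markers none passed by edgeR in the fit of all libraries (median log2 fold change 1.31, against 0.01 over all genes tested), nor did any of 8 reticular markers not used by the rules (median -1.55), whose direction was partly fixed by choosing the comparison cells on Cxcl12 and Adipoq. DESeq2 on the same 4 libraries called 5 of the 10 higher (Alpl, Col1a1, Postn, Pth1r and Spp1) and 4 of the 8 lower (Foxc1, Kitl, Lepr and Lpl). Of 15 injury matricellular genes 2 were higher by edgeR (Fn1 and Wisp1, median 0.60). DESeq2 called 4 of them higher (Fn1, Postn, Spp1 and Wisp1) and 1 lower (Cyr61). Without ABL replicate 2 edgeR called the same 4 higher, of 14 tested. Without CONT replicate 1 the count over all genes was 0, with 693 unadjusted p-values under 0.05. Wif1-positive cells were also deeper than reticular cells in each library, and after thinning every cell to 2700 UMIs 131 genes passed, 43 higher and 88 lower.

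By edgeR the Wnt genes fixed as lists showed no member past the threshold against reticular cells, in 6 ligand, 15 receptor, 7 other antagonist, 13 intracellular and 10 target genes tested. Their median log2 fold changes were -0.84, -0.17, -0.54, -0.19 and 0.52. DESeq2 called 2 of them, the antagonist gene Frzb higher and the potentiator gene Rspo2 lower. Without ABL replicate 2 no member of these lists passed by edgeR either, while without CONT replicate 2 Rspo2 and Lgr5 were lower. Among ligands, Wnt4 was at 52.2, 67.1, 159 and 32.1 CPM and Rspo3, a potentiator of Wnt signalling, at 134, 125, 168 and 29.6 CPM in Wif1-positive cells of CONT and ABL replicate 1 and CONT and ABL replicate 2. Wnt3a and Rnf43 had 0 UMIs in all 4. Among receptors, the co-receptor gene Lrp4 was at 212, 278, 27.6 and 7.57 CPM, higher in both libraries of replicate 1 than in both of replicate 2.

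Of the other secreted antagonists, Igfbp4 was the most abundant, at 4554, 2833, 2848 and 860 CPM, and Sfrp4 followed at 369, 178, 681 and 77.5 CPM. Both were lowest in ABL replicate 2. The feedback target Axin2, a common readout of beta-catenin activity, was at 6.53, 2.40, 8.46 and 8.79 CPM, and at 2.24, 4.97, 5.29 and 2.85 CPM in reticular cells. The difference did not pass (log2 fold change 0.82, SE 0.46, edgeR adjusted p = 0.574). Among osteogenic transcription factors, Runx2 was at 225, 213, 248 and 78.9 CPM and Sp7 at 71.8, 79.1, 7.49 and 34.1 CPM. Sp7, which encodes osterix, was lowest in CONT replicate 2, and Runx2 was lowest in ABL replicate 2.

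Ablated and contralateral femurs were compared within Wif1-positive cells to ask how the cells that met the rule differed after injury. Some cell cycle, collagen and late osteoblast genes were higher in ABL, and some reticular and niche genes were lower, while the cartilage genes that passed were high in ABL replicate 2 only. The fit on summed UMIs with the replicate as a block called 250 genes higher (2.40%) and 210 lower (2.02%) of 10397 tested by edgeR's quasi-likelihood test. The fit left 1 residual degree of freedom. Unadjusted p-values under 0.05 numbered 1604. DESeq2 called 115 genes, 101 of them in common with the 460, and gave no adjusted p for 30 of the 460. A fit with no replicate block called 0 genes, with 927 such p-values, so the calls rest on the block. With 3 libraries the block cannot be kept, so fits of ABL against CONT that leave out a library also lose it, and their losses cannot be put down to the library alone. Such fits called 0 genes without CONT replicate 1 (1172 unadjusted), 802 without ABL replicate 1, 0 without CONT replicate 2 (190 unadjusted) and 77 without ABL replicate 2. The methods describe the replicates as biological, and the p-values measure the spread between only 2 of them.

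Of 18 proliferation genes tested, 9 were higher in ABL and none lower (median log2 fold change 1.83, against -0.02 over all genes). Mki67 was at 49.1 CPM in ABL against 6.53 in CONT of replicate 1 and at 32.7 against 5.80 in replicate 2 (log2 fold change 2.73, SE 0.56, edgeR adjusted p = 0.00264). Birc5, which encodes survivin, was at 16.3, 81.5, 0.725 and 35.6 CPM, and Cenpf, a kinetochore gene, at 3.26, 29.9, 2.42 and 50.5 CPM. Both ABL libraries lay above both CONT libraries for the 3 genes. DESeq2 called 5 of the 18 higher (Birc5, Ccnb2, Cdk1, Cenpf and Ube2c), and Mki67 was not among them (DESeq2 adjusted p = 0.0879). The cells with a Mki67 UMI were few, 2 of 45, 11 of 83, 7 of 260 and 21 of 327, and 3 of them held 75.6% of the Mki67 UMIs in ABL replicate 1. The 2 richest cells of that library held 27 of its 41 UMIs, had 2 and 3 Wif1 UMIs and only 0.0929% and 0.077% stromal UMIs, and without them its level was 18.4 CPM. Thus 1 of them lay at the Wif1 minimum, and both lay below the stromal limit. In members at or above the stromal limit Mki67 was at 20.8 CPM in ABL replicate 1, where the CONT library had 2 UMIs in all, and at 34.1 CPM in ABL against 5.91 in CONT of replicate 2. In these members Birc5 was at 46.0 CPM in ABL against 15.2 in CONT of replicate 1 and 37.1 against 0.738 in replicate 2. Cenpf was at 20.8 against 3.80 and 52.9 against 2.46 CPM. The 10 cells of ABL replicate 1 below the limit had 229 CPM of Birc5 and 68.2 of Cenpf. The erythroid gene Car1 was at 979 CPM in them. In replicate 2, 3 cells held 83.3% of the Mki67 UMIs in CONT and 52.5% in ABL. In cells with 4 or more Wif1 UMIs, Mki67 was at 0, 22.2, 14.6 and 20.1 CPM, but 1 cell held 15 of the 19 UMIs of CONT replicate 2 and the others were at 3.14 CPM. Without their richest cell, those of ABL were at 15.3 and 15.6 CPM. With a minimum of 3 Wif1 UMIs Mki67 no longer passed, and with a minimum of 1 UMI its log2 fold change was 0.38 and did not pass. Without ABL replicate 2 and the block, 5 of 16 proliferation genes were higher (Birc5, Ccnb1, Ccnb2, Cdk1 and Mki67).

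Of 15 collagen genes tested, 6 were higher in ABL (median 3.07). Col1a1, the main chain of bone collagen, was at 686, 9101, 392 and 27525 CPM in CONT and ABL replicate 1 and CONT and ABL replicate 2 (log2 fold change 5.05, SE 1.28, edgeR adjusted p = 0.0183). In each of the first 3 libraries 3 cells held about as many Col1a1 UMIs as all others, 51.4%, 49.2% and 57.8%, against 7.22% in ABL replicate 2. Without these 3 cells the levels were 352, 4926, 169 and 25970 CPM, in the same order. Col11a2 was at 6.53, 94.6, 3.63 and 398 CPM (adjusted p = 1.43e-05). Without ABL replicate 2 and the block, 3 of the 15 were higher (Col1a1, Col11a2 and Col22a1). DESeq2 called 6 higher, Col1a1, Col11a1, Col11a2 and Col22a1 among both tools' calls and Col1a2 and Col3a1 by DESeq2 alone. Cells with a Ptprc UMI also differed between conditions in Col1a1, at 159, 3058, 59.9 and 2547 CPM. Whether this was free RNA, and the part of free RNA in the difference, was not tested.

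Among markers of mature osteoblasts, 3 of 5 tested were higher in ABL. Smpd3, a sphingomyelinase gene needed for bone mineralization, was at 6.53, 156, 2.66 and 117 CPM (log2 fold change 5.33, SE 0.66, edgeR adjusted p = 5.56e-06). Dmp1 was at 65.3, 178, 5.08 and 45.6 CPM, and Ifitm5 at 22.9, 102, 1.69 and 41.1 CPM. Dmp1 in ABL replicate 2 lay below CONT replicate 1, so its order held within replicates only. Without ABL replicate 2 and the block, 2 of 5 were higher (Ifitm5 and Smpd3), as by DESeq2 on all 4 libraries. Alpl, at 761, 986, 119 and 532 CPM, and Spp1, at 3216, 11096, 1478 and 6046 CPM, had higher levels in the ABL library of each replicate but did not pass by edgeR (adjusted p = 0.381 for Alpl and 0.301 for Spp1), while DESeq2 called Spp1 higher (adjusted p = 0.0174).

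The largest rises by log2 fold change were in genes with at most 1 UMI in a CONT library, so levels are given in place of folds. They were Col9a3, Acan, Chad, Cd109, Ndufa4l2, Hapln1, 3110079O15Rik and Cthrc1. Cthrc1, an injury-associated collagen regulator, was at 0, 91.0, 0.483 and 585 CPM, and Cd109, a TGF-beta co-receptor, at 0, 41.9, 0 and 119 CPM (edgeR adjusted p = 6.68e-07 for both). Col9a3 was at 0, 13.2, 0 and 337 CPM (adjusted p = 6.68e-07), Acan at 3.26, 5.99, 0 and 1031 CPM (adjusted p = 0.000106) and Chad at 0, 5.99, 0.242 and 735 CPM (adjusted p = 1.99e-06). The cartilage genes of this set rested on ABL replicate 2, as their levels show, and of 7 chondrocyte markers tested 4 were higher. Without that library and the block only 3 of the markers were tested (median log2 fold change -0.18), so that fit cannot speak for the others. DESeq2 on all 4 libraries called none of the 7 (median log2 fold change 5.51), and of the 8 largest rises it called only Cthrc1.

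A minority of reticular and niche genes were lower in ABL. Of 10 reticular markers, 3 were lower (Lepr, Il7 and Fgf7, median -2.35), and of 11 hematopoietic niche factors, 3 were lower (Angpt1, Il7 and Fgf7, median -2.14). Lepr was at 483, 194, 1851 and 54.0 CPM (log2 fold change -3.12, SE 0.92, edgeR adjusted p = 0.0481). Cxcl12, the chemokine that retains hematopoietic stem cells, was at 9708, 4819, 18071 and 1141 CPM, lower in the ABL library of each replicate, but did not pass (edgeR adjusted p = 0.321). DESeq2 on all 4 libraries called Cxcl12, Hp and Lepr lower among the reticular markers and Cxcl12 and Vcam1 among the niche factors, so that Lepr was the one gene of the lists called by both tools. Without ABL replicate 2 and the block none of either list passed by edgeR (medians -1.92 and -1.37).

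The largest falls included Cxcl9, an interferon-induced chemokine gene, at 183, 0, 71.3 and 4.91 CPM (edgeR adjusted p = 3.36e-05). Il6, an inflammatory cytokine gene, was at 13.1, 1.20, 198 and 7.56 CPM (edgeR adjusted p = 0.000105). No folds are given for these genes, whose levels in ABL replicate 1 were at or near 0. Aldh1a2, an enzyme gene of retinoic acid synthesis, was at 408, 127, 478 and 4.09 CPM (log2 fold change -4.07, SE 0.96, adjusted p = 0.0105). Igfbp3, which binds insulin-like growth factors, was at 75.1, 7.19, 718 and 37.6 CPM (log2 fold change -3.80, SE 0.68, adjusted p = 0.000524). Others named by rule included Fmo2, Deptor and Tmem178, with log2 fold changes from -4.52 to -3.55. DESeq2 also called these genes lower except Cxcl9 (adjusted p = 0.268). Of 17 interferon response genes 3 were lower (Psmb9 and Oasl2 among them, median -1.18), but 0 of 16 without ABL replicate 2 and the block (median -0.63) and 0 of 17 by DESeq2.

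By edgeR, Wnt genes moved in both directions in ABL, but DESeq2 kept only Tnfrsf11b of these calls. Of 16 receptor genes 2 were higher (Fzd9 and Lgr6) and 1 lower (Fzd4, at 26.1, 2.40, 26.6 and 6.95 CPM). Of 8 secreted antagonists besides Wif1, Notum was higher, at 0, 10.8, 0 and 13.1 CPM, and Sfrp1 lower, at 160, 92.2, 179 and 17.4 CPM. Notum encodes an enzyme that inactivates Wnt proteins and is also a target of the pathway. Of 12 target genes 3 were higher (Ccnd1, Notum and Tnfrsf11b), and none of 6 ligand or 13 intracellular genes passed. Tnfrsf11b, which encodes the osteoclast inhibitor osteoprotegerin, was at 0, 9.58, 0.242 and 96.1 CPM. DESeq2 called none of the receptors or antagonists, with no adjusted p for Lgr6, and 1 of the 12 targets. Without ABL replicate 2 and the block none of the Wnt genes passed by edgeR. Wif1 itself, which chose the cells, is not compared.

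Whether the ABL difference of Wif1-positive cells differed from that of reticular cells was tested as an interaction term. Of 11859 genes, 0 passed by edgeR (0%), and 854 had an unadjusted p under 0.05, while DESeq2 called 8. Without ABL replicate 1 the count was 1382 and without ABL replicate 2 it was 132. No ABL difference given above is therefore shown to be particular to Wif1-positive cells.

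Against osteocalcin-high cells, the rule's upper boundary, most reticular and IGF genes tested were higher in Wif1-positive cells and most late osteoblast genes were lower, while matrix genes went both ways. Osteocalcin-high cells had at least 1% of UMIs from Bglap and Bglap2 and no Ptprc UMI. They numbered 8, 39, 1 and 44 cells, so the comparison used ABL replicate 1 and ABL replicate 2 only. Of the osteocalcin-high cells of these libraries, 9 of 39 and 18 of 44 also had at least 2 Wif1 UMIs. Of 6800 genes tested, 218 were higher (3.21%) and 216 lower (3.18%) in Wif1-positive cells by edgeR's quasi-likelihood test with the library as a block, which left 1 residual degree of freedom. With no library block 0 passed, and 635 had an unadjusted p under 0.05. Since the cells were divided by osteocalcin, the direction of genes that go with it was partly fixed by the choice.

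Of 9 reticular markers tested, 7 were higher in Wif1-positive cells (median log2 fold change 2.95, against 0.00 over all genes). Cxcl12 was at 4819 against 306 CPM in ABL replicate 1 and 1141 against 43.2 in ABL replicate 2 (log2 fold change 3.79, SE 0.35, edgeR adjusted p = 0.00196). Of 8 adipogenic genes 7 were higher by edgeR but 4 by DESeq2, and of 7 IGF system genes 5 and 4 were. DESeq2 called 6 of the 9 reticular markers. Igf1, a growth factor gene, was at 211 against 18.4 and 277 against 5.75 CPM (log2 fold change 3.96, SE 0.52, adjusted p = 0.00607). Igfbp4 was at 2833 against 131 and 860 against 37.4 CPM (log2 fold change 3.94, SE 0.31, adjusted p = 0.000976), and was 1 of 3 Wnt antagonists that were higher, with Sfrp1 and Sfrp2, while Dkk1 was lower. Sfrp1 did not pass by DESeq2 (adjusted p = 0.182). Both libraries had higher levels in Wif1-positive cells for Cxcl12, Igf1 and Igfbp4, and the levels of the 2 cell classes did not overlap across libraries.

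Of the label's markers, Limch1 was at 429 against 18.4 CPM in ABL replicate 1 and 87.5 against 1.44 in ABL replicate 2 (log2 fold change 4.28, SE 0.44, edgeR adjusted p = 0.00335). Kcnk2 was at 282 against 59.8 and 34.1 against 11.5 CPM (log2 fold change 1.44, SE 0.34, adjusted p = 0.0472), but did not pass by DESeq2 (adjusted p = 0.256). Tnfrsf19 was at 110 against 50.6 and 30.9 against 28.8 CPM and did not pass (log2 fold change 0.10, SE 0.34, adjusted p = 0.930). Alpl, at 986 against 672 and 532 against 724 CPM, did not pass either (log2 fold change -0.47, SE 0.30, adjusted p = 0.466), and its order changed between the libraries. Other large rises named by rule were Serpina3g, Sulf2, Col9a2, Kng1, Fst, S100b and Fbln5, with log2 fold changes from 4.22 to 5.11, of which Col9a2 did not pass by DESeq2. Fst encodes follistatin, an activin antagonist, and S100b a calcium-binding protein of cartilage and glia.

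Lower in Wif1-positive cells were 5 of 6 late osteoblast markers (Car12, Dmp1, Ifitm5, Phex and Smpd3, median -3.18), 5 of 14 osteogenic transcription factors and 8 of 15 collagens, while 5 collagens were higher (Col12a1, Col5a3, Col6a1, Col6a2 and Col6a3). Of 17 injury matricellular genes, 5 were higher (Aspn, Ctgf, Ogn, Tnc and Wisp2) and 2 lower (Thbs1 and Wisp1, median 0.92). DESeq2 made the same calls for the late osteoblast markers, collagens and matricellular genes, with Cthrc1 lower in addition, and called 4 of the 14 transcription factors. Dmp1 was at 178 against 727 and 45.6 against 580 CPM (log2 fold change -3.38, SE 0.41, edgeR adjusted p = 0.0047). Sp7 was at 79.1 against 205 and 34.1 against 141 CPM (log2 fold change -2.24, SE 0.30, adjusted p = 0.00607). Col1a1 was at 9101 against 116010 and 27525 against 104840 CPM (log2 fold change -3.32, SE 0.46, adjusted p = 0.00685). The largest falls were in Cpz, Lipc, Entpd3, Prss35, Car3, Col22a1, Mlip and Lpar3, from -5.59 to -4.49. Cpz encodes a Wnt-binding carboxypeptidase and Car3 a carbonic anhydrase.

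Other cell types were checked through their markers in Wif1-positive cells. Endothelial markers (6 genes) summed to 65.3, 12, 57.3 and 15.9 CPM in CONT and ABL replicate 1 and CONT and ABL replicate 2, with Cdh5 at 22.9, 1.20, 12.3 and 3.27. Schwann cell markers (3 genes) summed to 0, 2.40, 3.14 and 0.818 CPM, with Sox10 at 0 in all 4. Pericyte and smooth muscle markers (6 genes) summed to 39.2, 37.1, 26.8 and 213 CPM, the last led by Cspg4 at 146. Markers of 10 hematopoietic genes besides Ptprc summed to 45624, 18017, 330 and 1399 CPM, led by the globin gene Hbb-bs, and in reticular cells to 38297, 14264, 2317 and 4485 CPM. The reporter tdTomato had a UMI in 95.6%, 95.2%, 98.1% and 96.3% of Wif1-positive cells, against 35.8%, 45.5%, 38.7% and 65.0% of cells with a Ptprc UMI. Hematopoietic transcripts were thus high in both cell classes of replicate 1 and lower in replicate 2, and their part in the results was not tested.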

How the data were processed

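Single-cell RNA-seq libraries of tdTomato+ cells were analysed from the UMI counts the authors deposited, whole numbers per gene and barcode over all barcodes, made with Cell Ranger (version 3.0.0 in the headers of replicate 2) on mm10 with transgene sequences; no normalization had been applied. Called cells had at least 500 genes, at most 20% mitochondrial UMIs and at least 2700 UMIs in replicate 1, and at least 1000 genes, at most 15% and at least 4000 UMIs in replicate 2. UMIs of each cell class were added up within a library and tested across all genes with edgeR 4.0.16 (TMM, low-count filter, quasi-likelihood F-test) in R 4.3.3, calling genes at a Benjamini-Hochberg adjusted p under 0.05. DESeq2 1.42.0 was an alternative. On counts drawn from these libraries with 200 changed genes, the tests recovered 55 (ABL against CONT), 195 (reticular), 180 (osteocalcin-high) and 75 (interaction). Doublets called by Scrublet (scanpy 1.11.5) were 76, 17, 1 and 14 of the called cells, of which 2 were Wif1-positive, and were kept. With only 1 call in CONT replicate 2, doublets there may have been missed.

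Replicate was a block in the ABL comparison because the contralateral femurs shared a replicate number. Deviations of same-numbered libraries correlated at 0.310 over 10397 genes, which includes shared chemistry, and Xist was at 0 in ABL replicate 2 but not in CONT replicate 2, so the pairing by mouse is uncertain there. Genes were named by rule as the largest changes in each direction (12 against reticular cells, 8 in the other fits, 5 for the interaction) among those past the threshold, of one sign in every library or replicate and averaging 50 CPM or more where higher, plus members of fixed lists; calls against reticular cells below 50 CPM, Cpe in the Acan split and Tnn were named after their values were seen. The members, the 33 gene lists and the rule were chosen with earlier results of these data known. Levels are UMI based and were compared within a gene, except where the most abundant genes of a list are named. Some items are not reported here.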

Additional observations from a re-analysis of the deposited data

How the results depend on the processing

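Counts of called genes depended on the processing, and 4 libraries with 1 to 3 residual degrees of freedom limit every test. For ABL against CONT the count of 460 became 59 with a minimum of 1 Wif1 UMI, 136 with 3, 230 with no UMI minimum, 699 with stricter cell filters, 227 without doublets, 148 in tdTomato+ cells, 115 with DESeq2, 142 with no TMM (75.4% higher, against 54.3%), 861 with no low-count filter and 15 after thinning, an alternative chosen after seeing the data. With no replicate block it was 0, and leaving out 1 library, which also removes the block, gave 0 to 802. Against reticular cells the count of 16 became 5 with 1 Wif1 UMI, 27 with 3, 10 with no UMI minimum, 9 with stricter filters, 10 in tdTomato+ cells, 131 after thinning (32.8% higher, against 93.8%), 1 with no library block, 152 with DESeq2 (59.9% higher), 8 with no TMM and 451 with no low-count filter (49.2% higher), and leaving out 1 library gave 0 to 91. Against osteocalcin-high cells the count of 434 became 0 with no library block, 255 with DESeq2, 1151 with no TMM (84.2% higher, against 50.2%, with the median of all genes at 0.54) and 945 with no low-count filter. Leaving out a library was not run there, since no residual degrees of freedom remained. The interaction count of 0 became 8 with DESeq2 and 377 with no low-count filter, and 0 to 1382 without 1 library. The mean ABL minus CONT share of 7.54 points became 3.24 with all called cells as denominator. Direction turned for Kcnk2, ABL against CONT in Wif1-positive cells, without CONT replicate 1 (1.21) and without ABL replicate 2 (0.06), against -2.73 without ABL replicate 1, in fits that also lose the block and compare across chemistries, while within each replicate Kcnk2 was lower in ABL (282 against 496 and 34.1 against 65.3 CPM), and for Alpl, Wif1-positive cells against osteocalcin-high cells, with no TMM (0.078). Of the genes named, 2 of 27, 2 of 18 and 1 of 27 kept direction and side of the threshold under every alternative run for ABL, reticular and osteocalcin-high comparisons. The cause of these changes was not tested.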

Other observations

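Some cells outside the rule carried Wif1. Of cells with no Ptprc UMI and at least 1% osteocalcin UMIs, 3 of 8, 9 of 39, 0 of 1 and 18 of 44 had at least 2 Wif1 UMIs in CONT and ABL replicate 1 and CONT and ABL replicate 2. A UMI of the iCreER transgene was found in 0, 1, 23 and 10 Wif1-positive cells. The Y-linked gene Ddx3y was at 35.9, 5.99, 61.1 and 61.1 CPM in Wif1-positive cells of these libraries, and Eif2s3y at 9.79, 4.79, 13.1 and 34.6 CPM. Both Acan and Lepr had a UMI in 18 Wif1-positive cells of ABL replicate 2, of 244 with Acan.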
